A study of Mus musculus with 8 samples.

Results

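The cathepsins are a set of lysosomal proteases, and 10 of their genes were described here: Ctsa, Ctsb, Ctsc, Ctsd, Ctse, Ctsf, Ctsh, Ctsl, Ctss and Ctsz. They were chosen by name from the 43346 genes of the deposited count table, with earlier results of these data known. All 10 had enough reads to stay among the 12461 genes tested. They were measured by sequencing of polyadenylated RNA in 8 libraries of mouse macrophages, of 3 cell types, in each case at rest (0 h) and 3 h into lipopolysaccharide (LPS) exposure, the Gram-negative cell wall component sensed by TLR4. BMDM, which are macrophages differentiated from bone marrow with medium conditioned by L929 cells, had 2 libraries per state. RAW 264.7 (RAW) is an established macrophage-like mouse line, kept in DMEM with 10% FBS, and had 1 library per state. The cell type labelled hMPDM also had 1 library per state. What that abbreviation stands for, the strain and age of the animals, and the LPS dose are not stated in the sources used. Nothing in the labels says that the 2 BMDM libraries of a state came from separate cultures, so the p-values reflect the spread among these samples alone, and that spread may be technical.

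Cathepsins are made as inactive precursors, carried to the lysosome mainly by mannose 6-phosphate receptors, and activated there by acid and by one another or by legumain. Most are cysteine proteases of the papain fold (Ctsb, Ctsc, Ctsf, Ctsh, Ctsl, Ctss and Ctsz), while Ctsd and Ctse are aspartic proteases and Ctsa is a serine carboxypeptidase. In macrophages they digest phagocytosed and autophagic material, and Ctss and Ctsl also trim the invariant chain that blocks class II MHC molecules. Cystatins and stefins are their tight-binding inhibitors. The transcription factors TFEB, TFE3, MITF and TFEC bind CACGTG-containing elements upstream of many lysosomal genes.

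RefSeq promoter windows (GRCm38.p6, 300 bases each, 250 of them before the start site) were at hand for 7 of the 10 genes, 8 windows in all. Those of Ctsb, Ctse and Ctsh were not used here. Windows were searched on both strands. CACGTG was in 4 of the 8 windows, each of a different gene (Ctsa, Ctsd, Ctsf and Ctsl), and in 7.15% of all 32851 windows. The window of Ctsd held it at 245 and 98 bases before the start, that of Ctsf at 79 and that of Ctsl at 236. The second of 2 windows of Ctsa held it at 12 bases before its start and again just after it. CACGTG with GT before it and AC after it was in none of the 8 and in 0.326% of all. An interferon response-like pair of GAAA runs, 2 bases apart, was found in Ctss alone, at 21 bases before the start (3.44% of all windows). A STAT-like TTCNNNGAA was found in Ctsc alone, at 236 bases before the start (8.30% of all). A kappaB-like GGGA followed 2 bases on by TTCC was in none of the 8 (1.47% of all), and GAGGAAG, the core read by the macrophage factor PU.1, was in Ctsc and Ctss (13.6% of all). A match describes letters only. The 250 bases before the start are shown for 3 genes that the results turn on: Ctsd, the most abundant member, with CACGTG in capitals, Ctsc, the member that rose most after LPS in BMDM, with TTCNNNGAA in capitals, and Ctss, which was higher in RAW, with the GAAA pair and the bases between in capitals. Each is written 5′ to 3′ on the strand of its gene.
Ctsd, chr7:142387828-142388077, minus strand: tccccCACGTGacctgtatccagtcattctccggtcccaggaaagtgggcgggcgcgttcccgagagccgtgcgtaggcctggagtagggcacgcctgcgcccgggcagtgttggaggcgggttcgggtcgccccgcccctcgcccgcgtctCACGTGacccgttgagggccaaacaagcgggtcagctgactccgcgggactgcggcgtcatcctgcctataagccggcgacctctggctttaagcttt
Ctsc, chr7:88277835-88278084, plus strand: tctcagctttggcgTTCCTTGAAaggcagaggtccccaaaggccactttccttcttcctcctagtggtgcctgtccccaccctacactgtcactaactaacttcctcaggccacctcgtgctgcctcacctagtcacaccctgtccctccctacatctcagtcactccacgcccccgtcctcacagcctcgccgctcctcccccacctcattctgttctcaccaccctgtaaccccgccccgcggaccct
Ctss, chr3:95526536-95526785, plus strand: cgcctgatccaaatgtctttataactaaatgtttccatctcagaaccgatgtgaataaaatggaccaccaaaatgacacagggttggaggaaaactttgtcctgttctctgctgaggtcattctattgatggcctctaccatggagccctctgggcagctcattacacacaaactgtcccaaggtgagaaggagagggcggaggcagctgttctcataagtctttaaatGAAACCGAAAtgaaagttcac

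Library totals ran from 3116434 counts (RAW at rest) to 19307312 (a BMDM library at rest). As a check of the LPS labels, Tnf was at 32.1 to 52.0 CPM in the 4 resting libraries and at 796 to 2844 CPM in the LPS libraries. Levels are given as CPM, counts scaled to library size and by edgeR's TMM factors. The summed level of 7 macrophage markers was 14253 to 16653 CPM in all 8 libraries, with none of the 7 at 0. Lyz2 made up most of that sum (8616 to 12507 CPM), and single markers differed. In RAW at rest 3 were called higher than in BMDM and 4 lower (27.1% and 31.3% of all genes), with a median log2 difference of -0.89. After LPS 1 was higher in RAW and 5 lower (29.8% and 36.4% of all genes). Summed neutrophil markers ran from 4.45 to 96.2 CPM, osteoclast markers from 33.3 to 126 CPM, and markers of dendritic, B, T and NK, mast, fibroblast and erythroid cells stayed at or below 2.84 CPM per list. In the hMPDM library after LPS, 15 genes that BMDM make at 5 CPM or more, and that resting hMPDM make at no more than 5% of the BMDM level, stood at a pooled 10.8% of their BMDM level, against 1.38% at rest. The resting value is fixed by that choice of genes, which by itself favours a higher value in the other library, so the 2 values are no measure of BMDM RNA there, and its presence was not tested. Where it moves a call, values of that library are also given with 10.8% of the BMDM LPS profile taken out, as an alternative setting only.

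Per unit of transcript length, Ctsd and Ctsb made up most of the cathepsin RNA in every library. On the TPM scale (counts divided by gene length and scaled to a common total), the 10 genes together took 4.96% to 5.12% of all transcripts in BMDM at rest, 3.87% to 4.04% in BMDM after LPS, 4.93% and 4.01% in hMPDM, and 3.83% and 3.75% in RAW. Ctsd ranked 2 or 3 among all genes in each library and Ctsb 4 to 6. In BMDM at rest the TPM levels (mean ± SD, n = 2) followed the order Ctsd (26937 ± 927), Ctsb (14360 ± 189), Ctsz (3120 ± 53.0), Ctss (2881 ± 1.06), Ctsl (1580 ± 20.6), Ctsa (1242 ± 5.56), Ctsc (197 ± 1.36), Ctsh (56.8 ± 1.96), Ctsf (14.6 ± 0.520) and Ctse (1.65 ± 0.201). No neighbours in that order overlapped in their 2 libraries, and the order was the same in BMDM after LPS. In hMPDM at rest Ctss (2837 TPM) came before Ctsz (2711 TPM), and after LPS the BMDM order held. In RAW, Ctss (7617 TPM at rest) stood beside Ctsb (7619 TPM), a difference below counting error, and Ctsh came last.

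**Figure D1:**
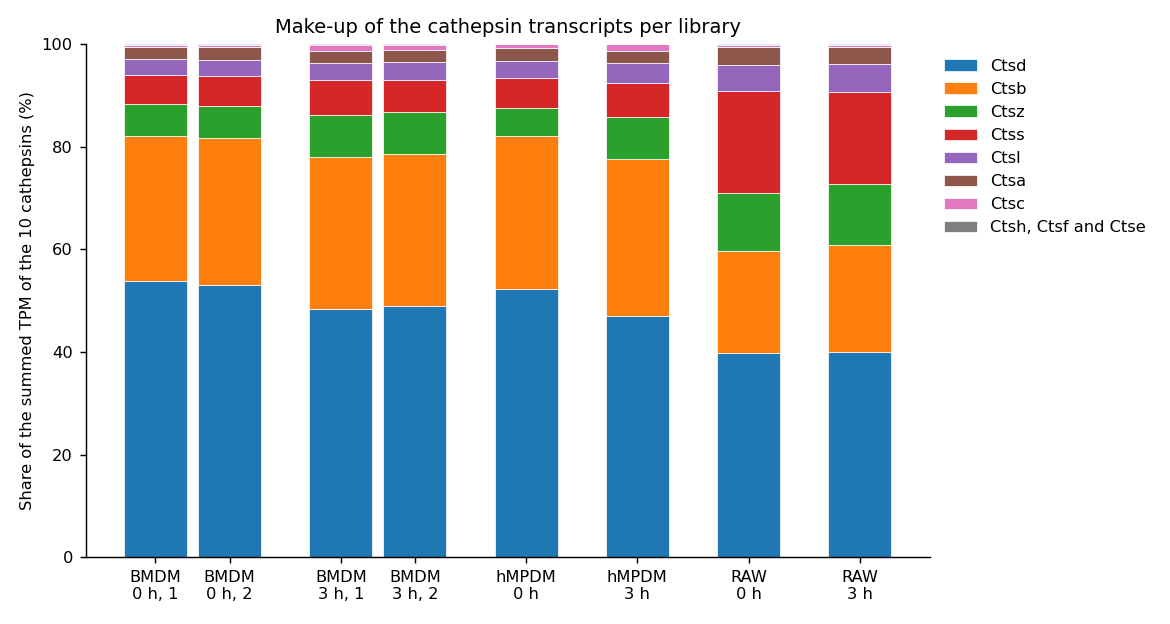
Share of each gene in the summed TPM of the 10 cathepsins (vertical axis, percent) in each of the 8 libraries, with Ctsh, Ctsf and Ctse drawn together. Ctsd and Ctsb hold 77.5% to 82.2% of the bar in BMDM and hMPDM and 59.7% to 60.9% in RAW, where Ctss fills 17.8% to 19.9%.

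The make-up of the cathepsin RNA differed between states and cell types, as the stacked shares show. Ctsd held 53.9% and 53.0% of the members' TPM in BMDM at rest and 48.4% and 48.9% after LPS, and in hMPDM 52.3% and 47.0%. In RAW it held 39.8% and 40.0%, with little difference between the states. Ctsc held 0.382% and 0.399% in BMDM at rest and 1.08% and 0.992% after LPS, 0.783% and 1.23% in hMPDM, and 0.394% and 0.458% in RAW. The ratio of Ctss to Ctsl, the 2 endopeptidases that act on the invariant chain, was 1.70 to 1.99 in the 6 libraries of BMDM and hMPDM and 3.95 and 3.26 in RAW on the TPM scale.

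**Figure D2:**
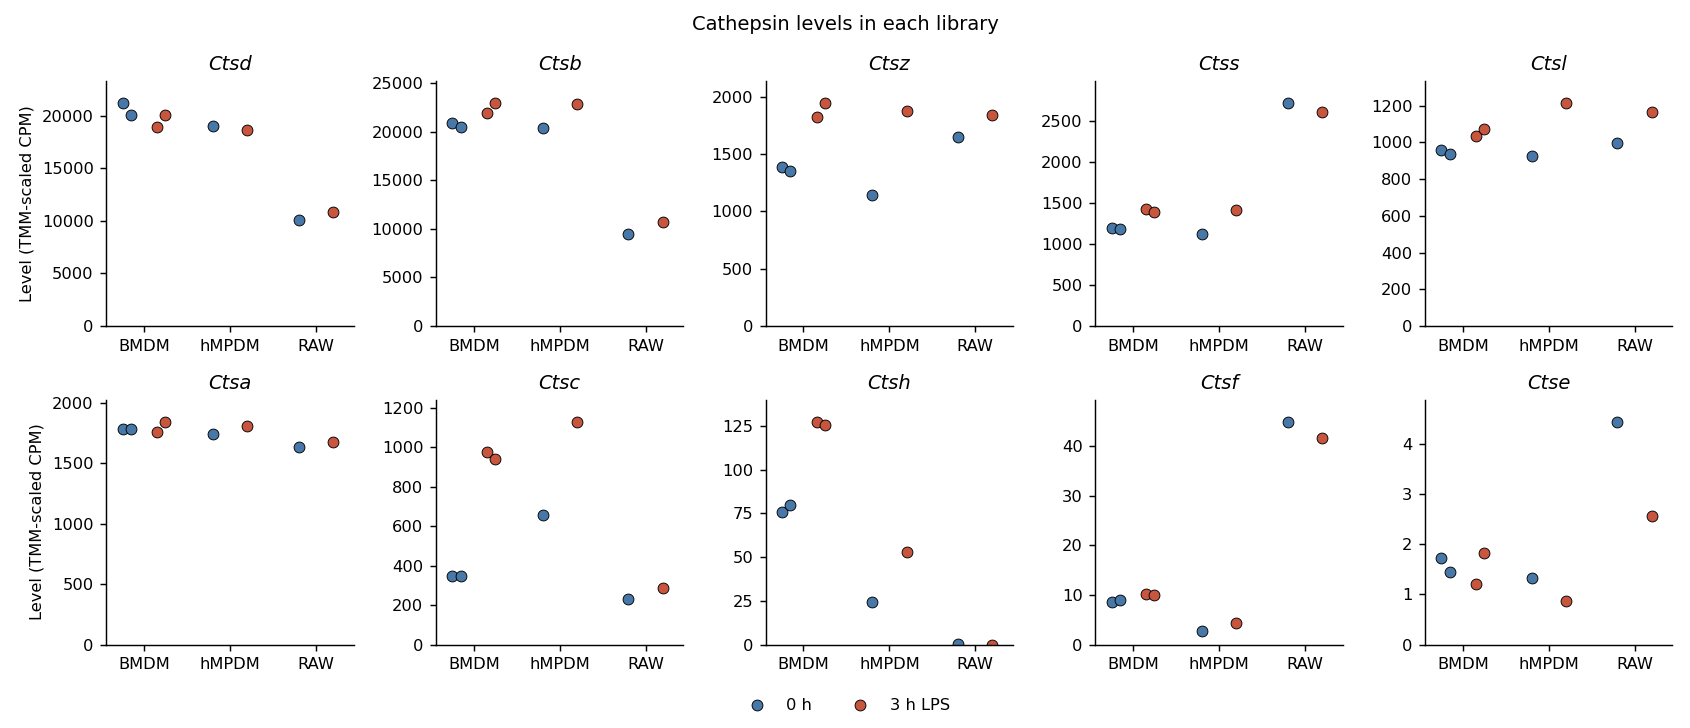
Level of each cathepsin (TMM-scaled CPM, linear axes from 0, a separate axis per gene) in the 8 libraries, each point 1 library, blue at 0 h and red at 3 h of LPS. Ctsc, Ctsh and Ctsz are higher after LPS in BMDM and hMPDM, and RAW is low for Ctsb, Ctsd, Ctsc and Ctsh and high for Ctss, Ctsf and Ctse.

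In BMDM, Ctsc, Ctsh and Ctsz rose most after LPS, and most of the abundant cathepsins stayed within 1.2-fold of their resting level with TMM. Of the 10 members, 6 rose and 0 fell by edgeR's quasi-likelihood test at an adjusted p of 0.05. In the same comparison 31.7% of all tested genes were called higher and 31.1% lower (62.7% in all), so a call alone says little here. The members' median log2 change was 0.18, against -0.02 over all genes. By library size alone, without TMM, the median of all genes moved to -0.38. On that scale 3 members rose (Ctsc, Ctsh and Ctsz, against 16% of all genes) and 5 fell (Ctsa, Ctsb, Ctsd, Ctsl and Ctss, against 61.1% of all genes). The directions of Ctsa, Ctsb, Ctsl and Ctss turned, and so did those of Ctsf (-0.17) and Ctse (-0.34), which were not called on either scale. In bulk RNA, a change in RNA per cell and a change in the share of cells that make it cannot be told apart. Summed neutrophil markers were also higher after LPS (58.7 and 65.6 CPM without, 96.2 and 90.0 CPM with LPS, 4 of 6 tested called higher), and their part in the members' changes was not tested.

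Ctsc encodes dipeptidyl peptidase I, which removes dipeptides and activates the serine proteases of granules (ENSMUSG00000030560.12, chromosome 7, 88278085 to 88310888, plus strand, mm10). Its level was 346 and 349 CPM in the resting BMDM libraries and 975 and 940 CPM in the LPS libraries. The states did not overlap, and the fold of 2.75 (log2 1.46, SE 0.0356, adjusted p = 5.11e-25) was the largest of the 10. It stayed at a log2 change of 1.09 by library size and also passed a 1.5-fold test, that is one against a fold change of 1.5 in place of no change, which was added after the values were seen and called 22.6% of all genes.

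Ctsh, an aminopeptidase that also cuts within chains, was the other member past that test (ENSMUSG00000032359.10, chromosome 9, 90054152 to 90076089, plus strand, mm10). Its level was 76.1 and 79.6 CPM without and 127 and 126 CPM with LPS, again without overlap (log2 0.70, SE 0.0493, adjusted p = 2.00e-13). By library size its log2 change was 0.33. Ctsz, cathepsin X, is a carboxypeptidase (ENSMUSG00000016256.10, chromosome 2, 174427493 to 174439039, minus strand, mm10). It stood at 1388 and 1350 CPM without and 1825 and 1943 CPM with LPS (log2 0.46, SE 0.0354, adjusted p = 1.29e-12), and at a log2 change of 0.10 by library size (adjusted p = 0.0124). These 3 genes were the members still called when the coefficient of variation was set at 10%, in place of the small spread of the BMDM pairs. The share of all genes called under that setting is not given.

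Among the cysteine endopeptidases the changes were smaller. Ctss (ENSMUSG00000038642.6, chromosome 3, 95526786 to 95556403, plus strand, mm10), the invariant chain protease of antigen-presenting cells, was at 1193 and 1190 CPM without and 1424 and 1396 CPM with LPS. It rose by 0.24 on the log2 scale (SE 0.0334, adjusted p = 2.50e-07), and stood at -0.12 by library size. Ctsl (ENSMUSG00000021477.8, chromosome 13, 64363214 to 64370306, minus strand, mm10) was at 959 and 938 CPM without and 1038 and 1071 CPM with LPS (log2 0.15, adjusted p = 0.000253, and -0.21 by library size). Ctsb (ENSMUSG00000021939.7, chromosome 14, 63122462 to 63145919, plus strand, mm10), which acts both within chains and at their carboxyl end, was at 20950 and 20498 CPM without and 21887 and 22933 CPM with LPS. Its log2 change was 0.11 (adjusted p = 0.00553) with TMM and -0.25 by library size. The call for Ctsb was lost without BMDM replicate 2 of either state (adjusted p = 0.0809 at rest and 0.0851 after LPS). Ctsf (ENSMUSG00000083282.2, chromosome 19, 4855129 to 4860912, plus strand, mm10), at 8.54 and 8.96 CPM without and 10.3 and 9.96 CPM with LPS, did not pass (log2 0.20, adjusted p = 0.185), although its states did not overlap.

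Neither the aspartic proteases nor the serine carboxypeptidase passed the test in BMDM. Ctsd, a main lysosomal endopeptidase (ENSMUSG00000007891.11, chromosome 7, 142371148 to 142388038, minus strand, mm10), was at 21200 and 20127 CPM without and 18956 and 20119 CPM with LPS. Its log2 change was -0.08 (SE 0.0364, adjusted p = 0.0550) with TMM and -0.45 by library size, where it was called. Ctse (ENSMUSG00000004552.12, chromosome 1, 131638306 to 131675505, plus strand, mm10), an endosomal protease, had 8 to 30 counts per BMDM library. Its levels of 1.73 and 1.45 CPM without and 1.21 and 1.82 CPM with LPS overlapped (log2 0.02, SE 0.328, adjusted p = 0.961), and this depth cannot show a small change. Ctsa, which also protects the neuraminidase and beta-galactosidase of the lysosome (ENSMUSG00000017760.11, chromosome 2, 164832873 to 164841032, plus strand, mm10), was at 1781 and 1787 CPM without and 1762 and 1845 CPM with LPS. These levels overlapped (log2 0.02, adjusted p = 0.696), while by library size Ctsa was called lower at -0.35.

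**Figure D3:**
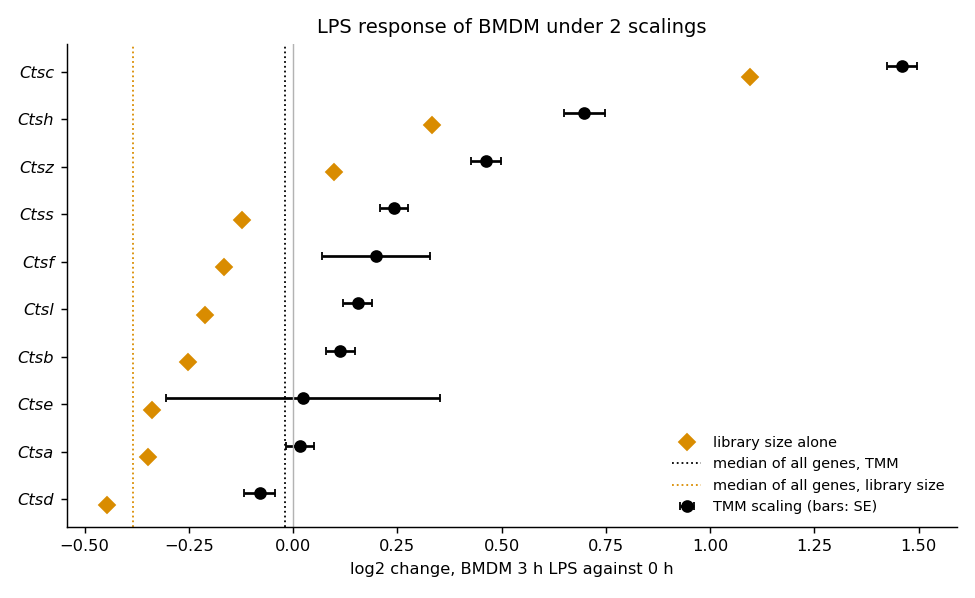
Log2 change of each cathepsin in BMDM after 3 h of LPS (horizontal axis), with TMM scaling (black circles, bars are the SE of the fit) and by library size alone (orange diamonds), and the median of all tested genes on each scale (dotted lines at -0.02 and -0.38). Ctsc, Ctsh and Ctsz lie above 0 on both scales, and each member keeps its place to the right of the median of all genes except Ctsd.

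The strand used in counting is not stated, and some members share bases with other genes in GENCODE M21. Ctsa overlaps Neurl2 and Pltp, Ctsb overlaps Fdft1, Ctsc overlaps Gm26522, and Ctsz overlaps Nelfcd, each on the opposite strand, so that reads of the shared stretch cannot be told apart. The highest count of these neighbours in any library was 1711 (Fdft1), 1492 (Pltp), 483 (Nelfcd), 73 (Neurl2) and 0 (Gm26522). Ctsd shares a strand with Ifitm10 and Gm49369, and Ctss with the pseudogene Hmgb1-ps5. Ifitm10 and Hmgb1-ps5 had at most 12 and 10 counts.

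At rest, hMPDM carried more Ctsc and less Ctsh and Ctsf than BMDM, and nearly the same amounts of the abundant cathepsins. Of the 10 members 1 was higher and 4 were lower (19% and 19.2% of all genes, 38.2% in all), with a median log2 difference of -0.10 against 0.00 over all genes. This comparison sets 1 hMPDM library against the 2 BMDM libraries, and the fit gives the single hMPDM library the spread of the BMDM pairs. Ctsc was at 655 CPM in hMPDM, above both BMDM libraries (log2 0.92, SE 0.0416, adjusted p = 2.84e-17). Ctsh was at 24.4 CPM, below both (log2 -1.67, SE 0.0760, adjusted p = 2.76e-17), and Ctsf at 2.70 CPM, from 45 counts (log2 -1.69, SE 0.194, adjusted p = 2.32e-08). These 3 members also passed the 1.5-fold test, as did 8.14% of all genes. Ctsz at 1144 CPM was lower by a small margin (log2 -0.26, adjusted p = 1.65e-05). Ctsd at 19033 CPM was called lower (log2 -0.12, adjusted p = 0.0360), a call lost by library size (adjusted p = 0.0866), in DESeq2 (adjusted p = 0.447), and without BMDM replicate 1 at rest (adjusted p = 0.261). Ctsb, Ctsl, Ctsa and Ctss stood at log2 differences of -0.03, -0.03, -0.04 and -0.08, and Ctse at -0.25 from 22 counts, none of them past the test. Markers of other cells also differed in this comparison: 8 neutrophil markers summed to 17.4 CPM in hMPDM against 58.7 and 65.6 CPM in BMDM, with 4 of 6 tested called lower and 1 higher (median log2 -1.88). The 5 osteoclast markers summed to 33.3 CPM against 72.8 and 69.8 CPM, mostly from Atp6v0d2 (30.2 against 70.0 and 67.1 CPM). Of that list Acp5 alone was higher in hMPDM (2.22 against 1.19 and 1.11 CPM). The part of these markers in the members' differences was not tested.

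The cell types were closer after LPS for Ctsc and Ctsz. Against BMDM after LPS, the hMPDM LPS library was higher for 2 members and lower for 2 (12.5% of all genes each way, 25% in all). Ctsc reached 1130 CPM in hMPDM (log2 0.24, adjusted p = 8.46e-05), and Ctsl 1213 CPM (log2 0.20, adjusted p = 0.000800). Ctsh at 52.8 CPM (log2 -1.26, SE 0.0923, adjusted p = 4.21e-12) and Ctsf at 4.36 CPM (log2 -1.20, SE 0.289, adjusted p = 0.00192) were lower. Under the setting that takes out 10.8% of the BMDM profile, Ctsh and Ctsf stood lower still, at -1.53 and -1.46, and the 4 calls held. DESeq2 gave an adjusted p of 0.0736 for Ctsf, from its 20 counts. Ctsz at 1872 CPM lay between the 2 BMDM libraries (log2 -0.01, adjusted p = 0.906).

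In RAW at rest, the members differed from BMDM in both directions: Ctsb, Ctsd and Ctsc were lower than in BMDM, Ctsh was almost unread, and Ctsf, Ctss and Ctse were higher. By the test 4 members were higher and 5 lower (27.1% and 31.3% of all genes, 58.4% in all), with a median log2 difference of -0.02 against -0.06 over all genes. By library size the median of all genes was 0.13, 5 members were higher and 4 lower (36% and 23%), and Ctsa turned direction. RAW had 1 library per state, so it too was given the BMDM spread. The summed neutrophil markers were 4.45 CPM in RAW at rest, with 5 of the 8 at 0 and all 6 tested ones called lower than in BMDM, and their part in the members' differences was not tested.

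Ctsb was at 9493 CPM in RAW and Ctsd at 10114 CPM, each below both BMDM libraries. Their log2 differences were -1.13 (SE 0.0450, adjusted p = 7.12e-19) and -1.03 (SE 0.0472, adjusted p = 1.81e-17). Ctsc was at 230 CPM (log2 -0.59, SE 0.0608, adjusted p = 1.33e-09). Ctsh had 1 count in RAW at rest, against 1273 and 1644 in BMDM. That is a ratio of BMDM to RAW of 298, with an exact 95% counting interval of 53.5 to 11788. Ctsa at 1639 CPM was called lower with a log2 difference of -0.12 (adjusted p = 0.0189), but stood at 0.08 by library size, and the call was lost in DESeq2 (adjusted p = 0.199) and without either BMDM library at rest (adjusted p = 0.0588 without replicate 1 and 0.0941 without replicate 2).

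Higher in RAW was Ctsf, at 45.0 CPM from 172 counts, 5.12-fold over BMDM (log2 2.36, SE 0.149, adjusted p = 3.59e-14). Ctss at 2720 CPM was 2.28-fold higher (log2 1.19, SE 0.0405, adjusted p = 1.36e-20). Ctse was at 4.45 CPM, from 17 counts (log2 1.49, SE 0.449, adjusted p = 0.00560), and was not called in DESeq2 (adjusted p = 0.226). Ctsz was higher by a small margin at 1645 CPM (log2 0.27, SE 0.0456, adjusted p = 1.12e-05). Ctsl was at 998 CPM and did not pass with TMM (log2 0.07, adjusted p = 0.167), while by library size it was called higher at 0.27 (adjusted p = 2.99e-06).

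**Figure D4:**
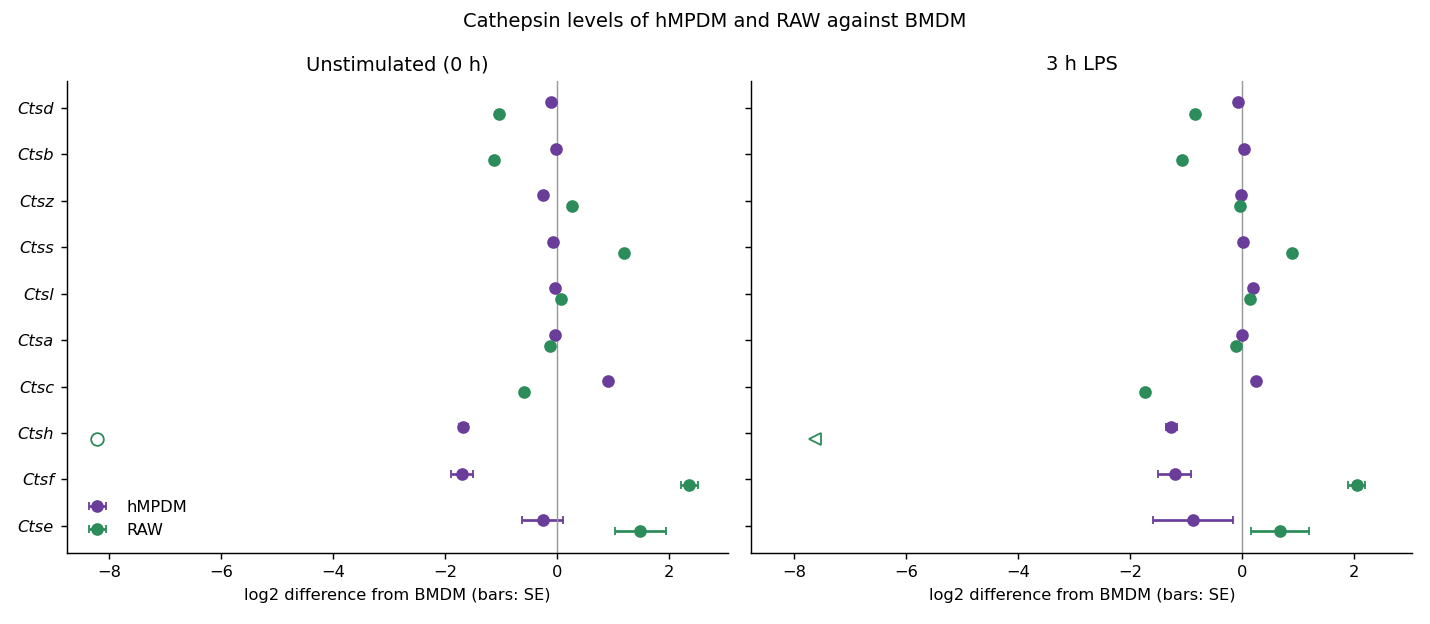
Log2 difference of hMPDM (purple) and RAW (green) from BMDM for each cathepsin, at 0 h (left) and after 3 h of LPS (right), with TMM scaling and the SE of the fit as bars. For Ctsh in RAW the open circle is the ratio from 1 count and the open triangle the bound from a floor of 3 counts, and both lie far to the left of all other points.

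After LPS, RAW was again lower than BMDM for Ctsb, Ctsd, Ctsc and Ctsh and higher for Ctsf and Ctss, with a wider gap for Ctsc. There were 3 members higher and 5 lower (29.8% and 36.4% of all genes, 66.2% in all). By library size the median of all genes was 0.38, against -0.09 with TMM. On that scale 5 members were higher and 4 lower (49% and 22.6%), and Ctsa and Ctsz turned direction, to 0.36 and 0.43. Ctsc was at 286 CPM in RAW, 3.34-fold below BMDM (log2 -1.74, SE 0.0543, adjusted p = 6.57e-22). Ctsb at 10673 CPM (log2 -1.07, adjusted p = 8.99e-19) and Ctsd at 10869 CPM (log2 -0.85, adjusted p = 7.02e-16) stayed lower. Ctsh had 0 counts and, at a floor of 3 counts for that library, was at least 197-fold lower than in BMDM. Ctsa at 1677 CPM was called lower (log2 -0.11, adjusted p = 0.0356), a call that DESeq2 did not make (adjusted p = 0.272). It was also lost without BMDM replicate 1 or 2 at rest (adjusted p = 0.0674 and 0.0660) and without replicate 2 after LPS (adjusted p = 0.188).

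Ctsf at 41.7 CPM (log2 2.05, SE 0.149, adjusted p = 4.83e-13) and Ctss at 2615 CPM (log2 0.89, SE 0.0407, adjusted p = 7.45e-18) remained above BMDM. Ctsl at 1164 CPM was slightly higher (log2 0.14, adjusted p = 0.00647). Ctsz at 1839 CPM lay between the BMDM libraries (log2 -0.04, adjusted p = 0.484), and Ctse at 2.57 CPM, from 12 counts, did not pass (log2 0.67, adjusted p = 0.257). All comparisons of hMPDM and of RAW with BMDM in a state share the same BMDM libraries.

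The responses of hMPDM and RAW to LPS rest on 1 library per state and have no test, so ratios are given with exact 95% intervals that cover counting error only. In hMPDM the members with the highest ratios were those that rose most in BMDM. Ctsh was 2.16-fold higher (1.83 to 2.54), Ctsc 1.72-fold (1.67 to 1.78) and Ctsz 1.64-fold (1.59 to 1.68). Ctsl (1.31), Ctss (1.26) and Ctsb (1.12) had smaller ratios, and Ctsa (1.04) and Ctsd (0.983) were near 1. Ctsf (1.61, 0.902 to 2.79) and Ctse (0.660, 0.165 to 1.94) were too shallow to show a direction. By library size the median of all genes in hMPDM moved to a log2 ratio of -0.38. On that scale the ratios of Ctsd (0.753), Ctsa (0.797), Ctsb (0.860) and Ctss (0.965) were below 1. Only Ctsh passed a size rule of 2-fold with at least 5 CPM, which 7.98% of all genes passed upward and 5.61% downward, and it no longer passed under the setting with 10.8% of the BMDM profile taken out.

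In RAW no member was 2-fold higher or lower (2.07% and 0.923% of all genes were). Ctsc was 1.24-fold higher (1.14 to 1.36), Ctsl 1.17-fold (1.12 to 1.22), Ctsb 1.12-fold (1.11 to 1.14), Ctsz 1.12-fold (1.08 to 1.15) and Ctsd 1.07-fold (1.06 to 1.09). Ctss had a ratio of 0.961 (0.936 to 0.987), the one abundant member below 1 with TMM. The intervals of Ctsa (1.02), Ctsf (0.927) and Ctse (0.577) included 1. By library size Ctsa too was below 1 (0.956, 0.925 to 0.989), and the interval of Ctsd (1.00, 0.991 to 1.02) included 1. The inflammatory genes of the same RAW libraries stood higher, with Tnf 15.3-fold and Nfkbia 4.17-fold above rest.

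**Figure D5:**
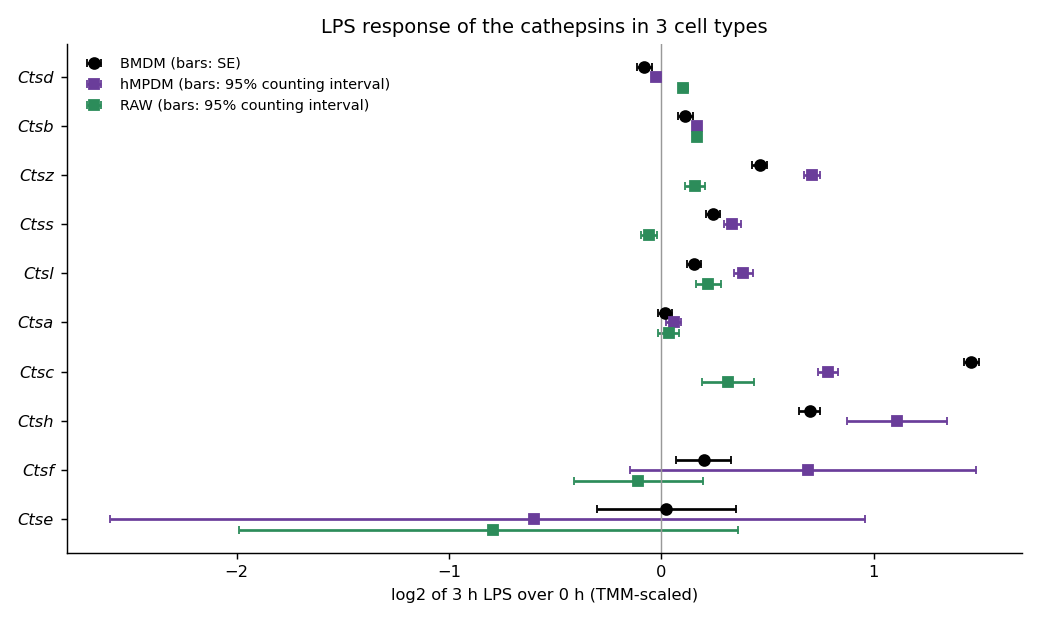
Log2 ratio of 3 h LPS over 0 h for each cathepsin (TMM-scaled) in BMDM (black circles, bars are the SE of the fit over 2 libraries per state), hMPDM (purple squares) and RAW (green squares), whose bars are exact 95% counting intervals of 1 library per state. Ctsc stands at 1.46 in BMDM, 0.79 in hMPDM and 0.31 in RAW, and Ctsh in RAW, at 1 and 0 counts, has no point.

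The difference between the responses was tested in the same fit. Between hMPDM and BMDM, 3 members had a larger and 1 a smaller response in hMPDM (3.96% and 3.89% of all genes, 7.86% in all). None of them, Ctsc included, was called with the coefficient of variation at 10% or passed the 1.5-fold test. Ctsc responded less in hMPDM (difference of log2 changes -0.67, SE 0.0613, adjusted p = 2.37e-09), from a higher resting level to a higher level after LPS. Ctsz (0.25, SE 0.0624, adjusted p = 0.00982) and Ctsl (0.23, SE 0.0606, adjusted p = 0.0129) responded more. DESeq2 gave an adjusted p of 0.0613 for Ctsl. Ctsh differed by 0.41 (SE 0.130, adjusted p = 0.0482), but the call was lost without BMDM replicate 2 at rest (adjusted p = 0.105) or after LPS (adjusted p = 0.0569), by library size (adjusted p = 0.0592) and in DESeq2 (adjusted p = 0.866). Under the setting with 10.8% of the BMDM profile taken out of the hMPDM LPS library its difference was 0.14 (adjusted p = 0.664).

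Between RAW and BMDM, 1 member had a larger and 3 a smaller response in RAW (10% and 12.7% of all genes, 22.7% in all). Ctsc differed by -1.15 (SE 0.0837, adjusted p = 5.23e-12), and it was the member that also passed the 1.5-fold test (7.82% of all genes). Ctsz (-0.30, SE 0.0643, adjusted p = 0.000579) and Ctss (-0.30, SE 0.0588, adjusted p = 0.000224) responded less with TMM. By library size, which moved the median of all genes from 0.00 to 0.27, both stood at -0.03 and were not called. On that scale 4 members responded more in RAW (Ctsa, Ctsb, Ctsd and Ctsl, against 24.5% of all genes) and 1, Ctsc, less (7.92%). Ctsd differed by 0.18 (SE 0.0637, adjusted p = 0.0350), a call lost in DESeq2 (adjusted p = 0.284) and without BMDM replicate 1 at rest (adjusted p = 0.151) or after LPS (adjusted p = 0.118). For Ctsh no difference of responses is given, since RAW had 1 and 0 counts. The tests of both differences share the BMDM libraries.

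A single LPS effect over the 3 cell types, in a fit with cell type as a term, called 5 members higher and 0 lower (25% and 24.2% of all genes, 49.1% in all). They were Ctsc (log2 1.01, SE 0.193, adjusted p = 0.00520), Ctsh (0.81, SE 0.118, adjusted p = 0.00194), Ctsz (0.45, SE 0.0884, adjusted p = 0.00591), Ctsl (0.23, adjusted p = 0.0176) and Ctsb (0.14, adjusted p = 0.0237). Ctss stood at 0.19 (adjusted p = 0.0626) and Ctsd at -0.02 (adjusted p = 0.763). None of the members (0 of 10) passed the 1.5-fold test, which 13.7% of all genes passed (adjusted p = 0.0640 for Ctsc and 0.0842 for Ctsh). By library size the median of all genes was -0.33, Ctsc and Ctsh were the 2 members called higher (13% of all genes), and Ctsa and Ctsd the 2 called lower (49.9%). The call for Ctsb was lost without either BMDM library at rest or without replicate 2 after LPS (adjusted p = 0.0907 to 0.116), and that for Ctsl without replicate 2 of either state (adjusted p = 0.0538 to 0.0628).

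Other cathepsin genes were mostly silent. Of 13 further ones, 10 had 0 counts in every library, and Ctsg, Ctsk and Ctso were tested. Ctsk, the collagen-degrading cathepsin of osteoclasts, was at 3.17 to 4.06 CPM in BMDM, 2.40 and 2.58 CPM in hMPDM, and 152.5 and 152.5 CPM in RAW (log2 difference at rest 5.25, adjusted p = 1.94e-25). Every BMDM and hMPDM library was below both RAW libraries. The summed osteoclast markers were 126 and 112 CPM in RAW, against 33.3 to 82.8 CPM in the other libraries. At rest all 3 tested markers of the list were called higher in RAW than in BMDM (27.1% of all genes), with Acp5 at 10.2 CPM against 1.19 and 1.11 CPM. After LPS the markers differed within the list: Acp5 was at 12.2 CPM in RAW against 28.4 and 35.8 CPM in BMDM. Dcstamp (35.7 against 1.06 and 0.948 CPM) and Atp6v0d2 (63.7 against 48.0 and 45.8 CPM) were higher in RAW. The part of these markers in the Ctsk level was not tested. Ctso was at 49.7 to 81.2 CPM in all libraries. Ctsg, a granule serine protease of neutrophils, was at 1.61 to 2.76 CPM in BMDM and hMPDM and had 0 counts in RAW. In BMDM Ctsg rose after LPS (log2 0.67, adjusted p = 0.0390), a call lost by library size (adjusted p = 0.326), beside the higher summed neutrophil markers given above.

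Ctss and Ctsk lie close together on chromosome 3, and genes around them were often higher in RAW. Of 78 other tested genes within 2 Mb of Ctss, 42 were called higher in RAW at rest and 9 lower, against 27.1% and 31.3% of all genes, with a median log2 difference of 0.49 against -0.06 over all genes. Ctss itself, at 1.19, lay above that median. Around Ctsd 8 of 60 genes were higher and 29 lower (median -0.41), and around Ctsb 3 of 22 were higher and 8 lower (median -0.43), to be read against the same 27.1% and 31.3%. Around Ctsf, which was higher in RAW, 19 of 117 were higher and 45 lower (median -0.17).

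The other genes of the pathway are counted against the shares of all genes called: in BMDM after LPS 31.7% higher and 31.1% lower with TMM (median log2 -0.02) and 16% and 61.1% by library size (median -0.38), and in RAW at rest 27.1% and 31.3% with TMM and 36% and 23% by library size. Among the inhibitors, 4 of 7 tested genes rose in BMDM after LPS and 2 fell, against 31.7% and 31.1% of all genes, with a median log2 change of 0.14 (by library size 2 rose and 4 fell, median -0.22). Serpina3g, a serpin that inhibits cysteine cathepsins, rose most (log2 4.81, adjusted p = 9.56e-10), from 0.239 and 0 CPM to 3.17 and 3.40 CPM, and reached 42.5 CPM in hMPDM. Cst7, cystatin F, rose from 15.6 and 17.2 CPM to 42.9 and 41.5 CPM (log2 1.35, adjusted p = 3.81e-15). Cystatin F is known to inhibit Ctsc, and in hMPDM Cst7 stood at 15.6 CPM without and 39.7 CPM with LPS, while in RAW it was at 2.35 and 1.93 CPM. Ctla2a (log2 -1.23, adjusted p = 6.07e-09) and Ctla2b (log2 -0.59, adjusted p = 1.03e-09), which resemble cathepsin propeptides, fell on both scales. In RAW at rest 2 of the 7 were higher and 4 lower on both scales.

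Of 10 other lysosomal peptidases and partners, 3 rose and 2 fell in BMDM after LPS, near or below the 31.7% and 31.1% of all genes (median log2 -0.02, and by library size 1 rose and 8 fell, median -0.38). Napsa, an aspartic protease, rose (log2 0.54, adjusted p = 1.04e-09). Lgmn, the legumain that processes cathepsins, fell by 0.19 on the log2 scale (adjusted p = 3.14e-05), and in resting hMPDM it was higher than in BMDM at 2096 against 1007 and 1009 CPM (log2 1.06, adjusted p = 4.92e-19). Neu1, the neuraminidase held in a complex with Ctsa, fell by 0.38 (adjusted p = 6.50e-09). In RAW at rest 1 of the 10 was higher and 6 were lower (27.1% and 31.3% of all genes, and 2 and 6 by library size), among the lower Glb1, the beta-galactosidase of that complex (log2 -1.81).

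Of 10 sorting genes, 5 rose and 3 fell in BMDM after LPS, against 31.7% and 31.1% of all genes (median log2 0.06, and by library size 1 rose and 7 fell, median -0.31). M6pr, the smaller mannose 6-phosphate receptor, rose on both scales (log2 0.65, adjusted p = 4.72e-16), and Gnptab, which makes the mannose 6-phosphate tag, fell by 0.53 (adjusted p = 2.73e-12). The adaptor gene Gga2 fell by 0.51 (adjusted p = 7.53e-10). In RAW at rest 3 of the 10 were higher and 4 lower (27.1% and 31.3% of all genes), a balance that turned by library size, with 5 higher and 2 lower (36% and 23%), with Sort1, an alternative sorting receptor, at -3.13.

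The 4 transcription factor genes moved in both directions in BMDM after LPS, with 3 higher and 1 lower (2 and 1 by library size), against 31.7% and 31.1% of all genes (16% and 61.1% by library size). Mitf rose from 26.3 and 27.6 CPM to 178 and 163 CPM (log2 2.65, adjusted p = 3.36e-26) and Tfec from 37.5 and 35.1 to 141 and 143 CPM (log2 1.97, adjusted p = 1.12e-23). Tfeb was at 7.85 and 10.0 CPM after LPS and fell on both scales (log2 -1.32, adjusted p = 2.75e-11). Tfe3 rose by 0.27 with TMM (adjusted p = 2.33e-06), and by library size it stood at -0.09. The 4 members with CACGTG in their window had BMDM log2 changes of 0.02 (Ctsa), -0.08 (Ctsd), 0.20 (Ctsf) and 0.15 (Ctsl). Ctsc, Ctss and Ctsz, with none, stood at 1.46, 0.24 and 0.46. Ctsb, Ctsh and Ctse, whose windows were not used, stood at 0.11, 0.70 and 0.02. Any link between CACGTG and the response was not tested.

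Of 8 class II presentation genes, 6 rose and 0 fell in BMDM after LPS, against 31.7% and 31.1% of all genes (median log2 0.69). By library size 5 were higher and 2 lower, against 16% and 61.1% (median 0.33). Cd74, the invariant chain cut by Ctss and Ctsl, rose from 93.0 and 96.1 to 165 and 165 CPM (log2 0.80, adjusted p = 8.70e-16), and the class II transactivator Ciita rose by 2.90 on the log2 scale. In RAW at rest 1 of the 8 was called higher than in BMDM and 7 lower (27.1% and 31.3% of all genes), and 1 and 6 by library size (36% and 23%). The higher gene was Ifi30, at 537 CPM in RAW against 113 and 115 CPM in BMDM. In RAW, Cd74 was at 78.7 CPM at rest, while H2-Aa, H2-Ab1 and H2-Eb1 stood at 0.784 CPM or less, in libraries where Ctss was at 2720 and 2615 CPM.

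The genes with the level pattern most like that of a member were taken by Pearson correlation of log2 CPM over the 8 libraries, as a description with no p. The libraries share 3 cell types, and RAW stands apart from the rest in most of these patterns. Ctsc was most like Fcgr2b (0.998), Trak2 (0.997) and Oasl2 (0.994), and Ctsh was most like Trio (0.998). For Ctsb they were Dnajc14, Lamp1 and Unc13d (0.998 each), and for Ctsd Morn4 (0.996). Ctsf was most like Sdc1 (0.997), Ctss most like Mrps30 (0.997) and Ctsz most like Eno2 (0.993), while Ctsl (0.972 with Homer1), Ctsa (0.981 with Zmiz1os1) and Ctse (0.985 with Traf3ip1) had less close partners.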

How the data were processed

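PolyA RNA of 8 libraries was extracted with TRIzol, made into libraries with a KAPA stranded kit and sequenced single-end, per the series description. The authors deposited raw counts per gene, in the layout of featureCounts per the file headers. Tools listed, without versions, in the submitters' processing notes are featureCounts, STAR, cutadapt, bedtools and SAMtools, with mm10 as the build. Of 10 value columns, 8 matched a single sample and 2 were not used. Symbols were matched for 42462 of 43346 identifiers, 884 had none and 20 shared one. Genes were filtered with filterByExpr (12461 kept), scaled by TMM and tested with edgeR 4.0.16 (R 4.3.3) by quasi-likelihood, with 1 coefficient per group and 2 residual degrees of freedom, all from BMDM. The common effect had 4. Adjusted p-values are Benjamini-Hochberg values over all tested genes. An SE is the size of a log2 value divided by the square root of F. Alternatives were DESeq2 1.42.0, library size scaling, DESeq2 size factors, no filter, a coefficient of variation of 10%, each BMDM library left out, a replicate block, and a test against 1.5-fold (added after the values were seen). The scripts were tested on simulated data. All 10 members were named; of each list, the called genes with the largest or smallest BMDM change, and a few chosen after their values were seen (Lgmn, Neu1, Glb1, Sort1, Ctsk, Ctso and values of other cell types). The members and lists were chosen with earlier results of these data known. BMDM pairs differed beyond counting error, with a chi-square of 1.60 and 1.69 times its degrees of freedom. A count of 0 allows up to 3 counts, 0.155 CPM in the deepest and 0.963 CPM in the shallowest library. Exact 95% intervals and floors reflect counting error alone, because PCR copies were not marked by molecular identifiers.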

Additional observations from a re-analysis of the deposited data

Results flagged for a closer look

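For 6 cathepsins a test of the difference between 2 cell types' LPS responses passed at an adjusted p of 0.05 (edgeR's quasi-likelihood test, differences of log2 changes). Over all genes 7.86% passed between hMPDM and BMDM, where 4 members did, and 22.7% between RAW and BMDM, where 4 did. Against BMDM, the hMPDM response of Ctsc was smaller by -0.67 (adjusted p = 2.37e-09), and those of Ctsh (0.41, adjusted p = 0.0482), Ctsl (0.23, adjusted p = 0.0129) and Ctsz (0.25, adjusted p = 0.00982) were larger. Against BMDM, the RAW response of Ctsc was smaller by -1.15 (adjusted p = 5.23e-12), those of Ctss and Ctsz by -0.30 each (adjusted p = 0.000224 and 0.000579), and that of Ctsd was larger by 0.18 (adjusted p = 0.0350). The call for Ctsh was lost by library size (adjusted p = 0.0592) and in DESeq2 (0.866), and that for Ctsl in DESeq2 (0.0613). In RAW, Ctss and Ctsz both stood at -0.03 by library size and were not called (adjusted p = 0.742 and 0.737). Ctsd was not called in DESeq2 (adjusted p = 0.284) or without BMDM replicate 1 at rest (0.151) or after LPS (0.118). Each rests on 1 library per state of hMPDM or RAW. With the coefficient of variation at 10%, and likewise in the 1.5-fold test, no hMPDM difference was called, and in RAW only that of Ctsc was.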

How the results depend on the processing

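Of the values given for single members under the alternatives, 788 kept their call or lack of a call, 87 lost the call and 12 gained one. A further 10 turned direction with a call under the main or the alternative setting, all 10 by library size alone. Values called under neither setting were counted as kept even where their sign changed, as for Ctsf in BMDM by library size. For the 10, the BMDM LPS changes by library size were -0.35 (Ctsa), -0.25 (Ctsb), -0.21 (Ctsl) and -0.12 (Ctss). The RAW differences were 0.077 (Ctsa) at rest, and 0.36 (Ctsa) and 0.43 (Ctsz) after LPS. The common changes were -0.27 (Ctsa), -0.16 (Ctsb) and -0.075 (Ctsl). This scaling shifts the median of all genes, as given with each comparison. Of the counts of called members, 156 stayed within 1.5 times the value reported and 40 did not. By library size 3 members rose and 5 fell in BMDM, 5 were higher in RAW after LPS, 4 responded more and 1 less in RAW than in BMDM, the common effect had 2 higher and 2 lower, and 0 were 2-fold higher in hMPDM. In BMDM 1 member, in place of 0, fell with DESeq2 size factors, with no filter, and with a BMDM library left out (range 0 to 1). With the coefficient of variation at 10%, 3 rose in BMDM, 2 were lower in hMPDM at rest, 0 higher after LPS, 0 differed in response between hMPDM and BMDM, 0 responded more and 1 less in RAW, and 3 rose in common. With the test against 1.5-fold the counts were 2 (BMDM, higher), 2 (hMPDM at rest, lower), 3 (RAW at rest, lower), 0 and 1 (hMPDM after LPS), 0 and 0 (hMPDM minus BMDM response), 0 and 1 (RAW minus BMDM response) and 0 (common). With DESeq2's own test 1 member was lower in hMPDM after LPS, 1 responded more in hMPDM and 0 in RAW. With a BMDM library left out, 0 to 1 responded more in RAW and 3 to 5 rose in common. With 10.8% of the BMDM profile taken out of hMPDM after LPS, 0 members were 2-fold higher there. For most of these settings, and for the replicate block below, the share of all genes called is not given. The counts therefore show how calls moved with the setting and are no result about the members. The cause of these moves was not tested.

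BMDM libraries share replicate numbers, but same-numbered libraries did not deviate together (Pearson r -0.0346, Spearman -0.0570 over 12461 genes). With 2 libraries per state, these values cannot show whether same-numbered libraries share more than a number. With a replicate block 6 members rose and 0 fell in BMDM, as without it, while 1 in place of 3 responded more in hMPDM and 0 in place of 1 in RAW. Depth limits Ctse, Ctsf outside RAW, and Ctsh in RAW.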
